A study of Mus musculus with 26 samples.

Results

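Transcript levels of 44 genes of cardiac fibroblasts and the extracellular matrix were followed in the left ventricle of adult male mice that carried a gene trap in Uty or the wild-type gene and had been castrated or sham-operated. The genes were chosen by name, and all 44 were found among the 47642 genes with counts. They comprised 5 fibrillar collagens, 8 other collagens, 11 matrix glycoproteins and elastic fibre proteins, 3 small leucine-rich proteoglycans, 3 lysyl oxidases, 5 metalloproteinases and inhibitors, 3 TGF-beta ligands and 6 receptors, factors and cytoskeletal proteins of fibroblasts. Libraries were made from the 3′ ends of polyadenylated transcripts in total RNA from frozen tissue, so that each counted tag marks the end of a transcript and not its length. Gene-trap mice carried UtyGt(XS0378)Wtsi, a cassette inserted into intron 4 of Uty, on the Y chromosome, that cuts the host transcript short, and wild-type mice were of an isogenic strain, C57BL/6.Y<129P2>, in which a Y chromosome of another strain stands on the C57BL/6 background. The trap is carried in every cell, so the genotype is not restricted to fibroblasts or to the heart. Surgery took place at about 10 days of age and tissue was taken at 40 days. There were 6 libraries of each genotype after sham surgery and 7 of each genotype after castration. The labels do not say whether a library stands for a single animal, and p-values therefore reflect only how far libraries of a group lie apart, which may be technical.

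Fibroblasts make most of the interstitial matrix of the heart. Fibrillar collagens form its load-bearing fibres, type IV collagen its basement membranes, and lysyl oxidases crosslink both collagen and elastin, while metalloproteinases cut the matrix and tissue inhibitors hold them back. TGF-beta is the best known inducer of collagen transcription in fibroblasts, and androgens act on the heart through a nuclear receptor whose main ligands are lost after castration.

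Libraries held 6357485 to 9399241 counts on genes, and the 44 genes together took 0.359% to 0.590% of them. Levels are given as CPM, the count of a gene divided by the TMM-adjusted library size and scaled to a fixed total. A count of 0 allows up to 3 counts, 0.319 to 0.472 CPM, which covers counting error only. Uty itself was at 6.55 to 10.4 CPM in wild-type sham and 6.59 to 11.8 CPM in wild-type castrated libraries, against 0.124 to 0.723 and 0 to 1.06 CPM in the corresponding gene-trap groups. Every library thus matched its labelled genotype. Wild-type sham replicates 1 to 5 stood apart from all other libraries on the first principal component of all genes, at -78.2 to -33.6 against -26.0 to 37.3 in the other 21 libraries, and gene-trap castrated replicates 1 to 4 stood apart on the second, at 28.1 to 39.7. The first component moved with the base composition of the transcripts. Each gene's log2 CPM, relative to its mean over all libraries, was fitted on the GC content of the transcript ends. The slope per 10 percentage points was 0.0355 to 0.432 in wild-type sham and -0.205 to 0.0837 in gene-trap sham libraries. It was -0.265 to 0.0671 in wild-type castrated and -0.224 to 0.259 in gene-trap castrated libraries. The summed level of 8 cardiomyocyte markers ran from 58038 to 111154 CPM in wild-type sham and from 46435 to 83662 CPM in the other groups. The part of these differences in the results was not tested beyond the values given beside them. In tissue, fewer cells of a type and less RNA per cell cannot be told apart.

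The fibroblast label was checked against 10 further fibroblast markers. Abca8a, Fstl1, Pi16, Meox1, Cilp, Scara5, Thy1, Fap and Islr were detected in every library, and Lamc3 reached at most 0.977 CPM. Of the 9 that passed the filter on low counts, 4 rose and 1 fell after castration in wild type, where 40.3% of all genes passed the test described below, and 1 was higher and 1 lower between genotypes in sham, where 26.2% did. The ranges of their summed level overlapped in all groups, with medians of 468 CPM in wild-type sham, 528 CPM in gene-trap sham, 467 CPM in wild-type castrated and 465 CPM in gene-trap castrated libraries. The summed level of the 44 genes themselves had medians of 4515, 4568, 4528 and 4931 CPM in the same order, with ranges that overlapped in all 4 groups (4222 to 4883, 3980 to 4912, 4057 to 4720 and 4048 to 5391 CPM). Gene groups within the set could still differ in level: the 5 fibrillar collagens summed to 221 to 355 CPM in wild-type sham and 360 to 511 CPM in wild-type castrated libraries, without overlap, and to 282 to 452 CPM in gene-trap sham and 269 to 552 CPM in gene-trap castrated libraries.

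Tests were made with edgeR's quasi-likelihood test on all genes, with Benjamini-Hochberg adjustment over all of them and a threshold of 0.05. Between the genotypes after sham surgery, 10 of 42 tested genes of the set differed, against 26.2% of all 11569 genes tested. Of these, 5 were higher in gene-trap sham (Col3a1, Col1a2, Vim, Col5a2 and Ddr2) and 5 were lower (Col6a2, Fbln1, Timp2, Bgn and Loxl1), against 11.9% higher and 14.3% lower among all genes. The median log2 fold change was 0.09 over the set and 0.02 over all genes. The set's share of calls was therefore close to that of all genes. After castration 0 of 43 tested genes passed between the genotypes, against 0.205% of 11693 genes. In simulated counts this fit recovered 75% of changes of log2 1 and 19% of changes of log2 0.5, so small differences could be missed. At an unadjusted p under 0.05 there were 3 of the 43 genes, against 2386 of all 11693 genes. DESeq2 called 0 and limma voom 1, Sparc, a collagen-binding protein that guides collagen assembly. The shares of all genes called in those fits are not given. Sparc was at 437, 584 and 742 CPM (lowest, median and highest library) in wild-type castrated and at 648, 777 and 921 CPM in gene-trap castrated libraries. The groups overlapped, and the log2 fold change was 0.42 ± 0.131 (SE, edgeR adjusted p = 0.105).

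Castration in wild-type mice changed 19 of 43 tested genes, against 40.3% of 12291 genes tested. In the set 12 genes rose and 7 fell, while among all genes 19.1% rose and 21.3% fell. The median log2 fold change was 0.11 in the set and -0.02 in all genes. In 4 of the 43 genes (Col3a1, Col1a2, Col14a1 and Loxl2) every castrated library lay above every sham library; 3.09% of all genes did so. In gene-trap mice, 0 of 43 genes passed the same test, with 0.407% of all genes passing. At an unadjusted p under 0.05 there were 12, against 2167 of all 12291 genes. DESeq2 called 4 genes of the set, and since the share of all genes it called is not given, that count describes the set alone. In simulated counts 81% of changes of log2 1 and 13% of changes of log2 0.5 were recovered for castration in gene-trap mice. This comparison shares no library with castration in wild type. The castration effect had the same sign in both genotypes in 28 of 43 genes, 65.1%, against 52.3% of 12290 genes tested in both; the correlation of both effects across genes was r = 0.46 over the 43 genes and 0.14 over all genes, where genes are not independent replicates. The mean of the castration effects of both genotypes, a comparison added after the data were seen, passed in 16 of 43 genes, against 24.7% of all genes. Of these 12 were higher after castration (12.1% of all genes) and 4 lower (12.7%), and 15 of the 16 had the same sign in each genotype. Choosing genes by the mean of both effects favours the same sign, so that count is not read as agreement between the genotypes. All comparisons that use wild-type sham share those libraries. With replicate 6 as the only wild-type sham library, that group shows no spread of its own. Whether a gene passed there was therefore not read, and only effect sizes of that fit are given below.

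**Figure D1:**
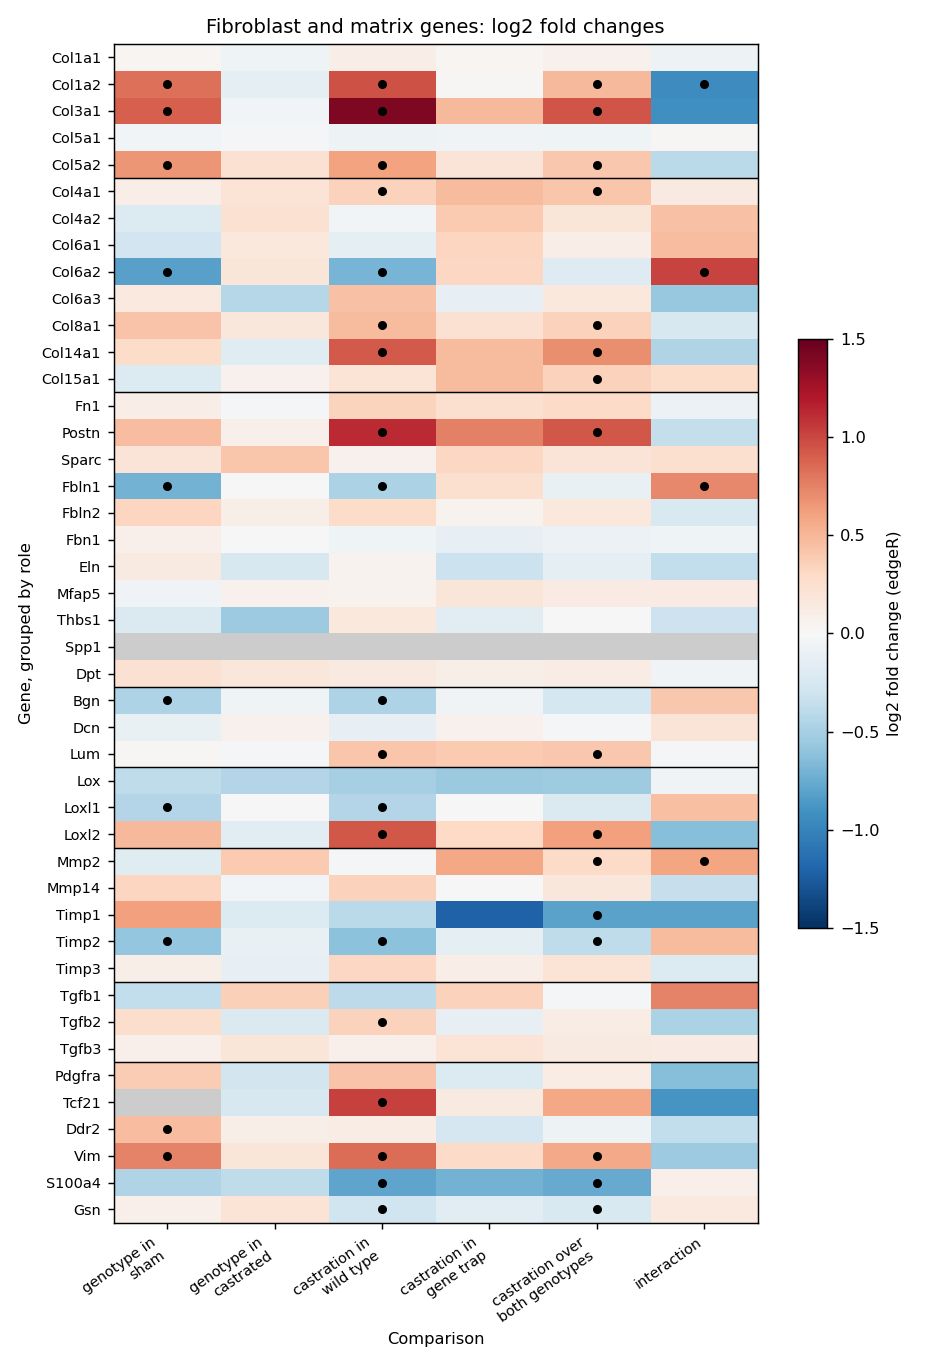
Log2 fold change of each of the 44 genes (rows, grouped by role) in 6 comparisons (columns), from edgeR; red is higher, blue is lower and grey was not tested, and a dot marks an adjusted p under 0.05. Dots stand in 10, 0, 19, 0, 16 and 4 rows from left to right; the genotype column in castrated mice and the castration column in gene-trap mice have none.

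The fibrillar collagens divided by gene, not by collagen type. Col3a1 encodes the homotrimeric type III collagen of compliant fibres. It was at 41.4, 49.96 and 90.2 CPM in wild-type sham libraries, 62.7, 98.6 and 157 CPM in gene-trap sham, 103, 152 and 189 CPM in wild-type castrated and 83.0, 167 and 195 CPM in gene-trap castrated libraries (lowest, median and highest library, here and below). Wild-type sham was the low group: its highest library, replicate 6, lay below every wild-type castrated library but above some gene-trap sham libraries. Col3a1 rose 2.64-fold after castration in wild type (log2 fold change 1.401 ± 0.244, adjusted p = 0.000299) and was 1.86-fold higher in gene-trap than in wild-type sham (0.89 ± 0.241, adjusted p = 0.0149). In gene-trap mice the castration effect was 0.48 ± 0.237 (adjusted p = 0.287), and over both genotypes 0.94 ± 0.170 (adjusted p = 0.000996). Col1a2 encodes the alpha2 chain of type I collagen, the main collagen of the heart. It was at 35.5, 65.0 and 99.2 CPM in wild-type sham libraries, 98.3, 114 and 136 CPM in gene-trap sham, 102, 128 and 154 CPM in wild-type castrated and 63.3, 134 and 172 CPM in gene-trap castrated libraries. Every wild-type castrated library lay above every wild-type sham library. Gene-trap castrated libraries spread most, with replicates 1, 2 and 4 at 63.3 to 86.5 CPM and the other 4 at 134 to 172 CPM. Col1a2 rose by 0.96 ± 0.196 after castration in wild type (adjusted p = 0.000737) and was higher by 0.83 ± 0.177 in gene-trap sham (adjusted p = 0.00333), while its castration effect in gene-trap mice was 0.01 ± 0.192 (adjusted p = 0.981).

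Col1a1, which encodes the partner chain of Col1a2 in type I collagen, had medians of 94.1, 93.1, 114 and 107 CPM in the same order of groups. It passed in none of the 6 comparisons; over both genotypes its castration effect was 0.06 with a 95% interval from -0.15 to 0.28. The type V collagen genes, whose products start fibril assembly, behaved the same way. Col5a2 was at 9.09, 16.01 and 27.5 CPM in wild-type sham libraries, 18.6, 25.8 and 30.1 CPM in gene-trap sham, 15.999, 25.5 and 29.3 CPM in wild-type castrated and 17.4, 29.2 and 37.9 CPM in gene-trap castrated libraries. The groups overlapped, with 5 of 6 wild-type sham libraries in the lower part of the range. Col5a2 was higher in gene-trap sham (0.66 ± 0.209, adjusted p = 0.0268) and rose after castration in wild type (0.61 ± 0.198, adjusted p = 0.0159), and its partner Col5a1 had medians of 30.0, 29.8, 30.1 and 28.95 CPM and passed nowhere. Without wild-type sham replicate 4, the lowest library, Col5a2 differed by 0.55 between genotypes (adjusted p = 0.0546), by 0.49 after castration in wild type (adjusted p = 0.0547) and by 0.34 over both genotypes (adjusted p = 0.0646), and its sham call was lost without any of 5 single libraries. With replicate 6 as the only wild-type sham library, the castration effects in wild type were 0.74 for Col3a1, 0.41 for Col1a2 and -0.13 for Col5a2. The genotype effects in sham were then 0.21, 0.25 and -0.10.

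The promoters of Col1a2 and Col3a1 are shown because their transcripts had the largest rises among the fibrillar collagens. Those of Col4a1 and Col4a2 are shown because these genes share a start region and differed in their calls before removal of the GC trend described below. RefSeq (GRCm38.p6) gave windows of 250 bases before to 50 after a start site for 30 of the 44 genes. Capitals mark exact matches on either strand to any of 5 motifs, and overlapping matches would share capitals. The TATA box was searched as TATAAA and the CCAAT box by the letters of its name. The GC box was searched as GGGCGG, and the Smad-binding element, where TGF-beta signal transducers bind, as CAGACA. The androgen receptor half-site was searched as AGAACA and had no match in the windows shown.
Col1a2, chr6:4505368-4505667, plus strand: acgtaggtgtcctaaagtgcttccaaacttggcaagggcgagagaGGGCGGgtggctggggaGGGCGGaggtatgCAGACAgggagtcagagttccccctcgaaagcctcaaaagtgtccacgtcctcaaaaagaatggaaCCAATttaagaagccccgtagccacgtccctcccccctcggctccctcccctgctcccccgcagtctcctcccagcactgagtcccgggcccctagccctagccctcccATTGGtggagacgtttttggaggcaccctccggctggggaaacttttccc
Col3a1, chr1:45311288-45311587, plus strand: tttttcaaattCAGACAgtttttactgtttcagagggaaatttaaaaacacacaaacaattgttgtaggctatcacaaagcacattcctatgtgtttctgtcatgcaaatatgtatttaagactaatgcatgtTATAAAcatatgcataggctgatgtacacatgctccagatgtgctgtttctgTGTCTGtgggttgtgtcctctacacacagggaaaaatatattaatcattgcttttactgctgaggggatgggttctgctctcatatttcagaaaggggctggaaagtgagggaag
Col4a1, chr8:11312777-11313076, minus strand: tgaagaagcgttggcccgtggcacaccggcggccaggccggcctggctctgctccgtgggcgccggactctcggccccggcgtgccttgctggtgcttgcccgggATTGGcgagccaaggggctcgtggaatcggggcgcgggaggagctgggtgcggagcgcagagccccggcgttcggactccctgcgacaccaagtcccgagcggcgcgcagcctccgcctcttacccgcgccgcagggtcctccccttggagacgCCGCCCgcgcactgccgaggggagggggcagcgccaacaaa
Col4a2, chr8:11312555-11312854, plus strand: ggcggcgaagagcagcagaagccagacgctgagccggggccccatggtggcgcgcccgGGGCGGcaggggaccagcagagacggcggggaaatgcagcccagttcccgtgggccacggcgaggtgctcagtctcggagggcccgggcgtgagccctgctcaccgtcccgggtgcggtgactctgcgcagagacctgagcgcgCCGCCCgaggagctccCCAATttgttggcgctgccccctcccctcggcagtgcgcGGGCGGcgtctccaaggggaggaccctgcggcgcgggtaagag
Col1a2 held GC boxes, CCAAT boxes and a Smad-binding element, and Col3a1, an AT-rich window, held a TATA box and Smad-binding elements but no GC box. The Col4a1 and Col4a2 genes lie head to head on chromosome 8 and their windows share 78 bases. Over the 36 windows of the set, 22.2% held a TATA box, 33.3% a CCAAT box, 52.8% a GC box, 25% a Smad-binding element and 8.33% an androgen receptor half-site; over 32851 windows of all genes the shares were 13.6%, 37.4%, 35.7%, 21.0% and 19.0%. A match describes letters in this window and does not show a site in use.

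Among the other collagens, Col14a1, Col4a1, Col15a1 and Col8a1 rose over both genotypes. Col14a1 encodes a fibril-associated collagen that regulates fibril diameter. It was at 6.17, 10.0 and 11.8 CPM in wild-type sham libraries, 9.44, 11.0 and 14.7 CPM in gene-trap sham, 13.6, 17.5 and 23.6 CPM in wild-type castrated and 12.6, 15.8 and 20.9 CPM in gene-trap castrated libraries. In wild type the sham and castrated ranges did not overlap, and in gene-trap mice they overlapped by few libraries. Col14a1 rose by 0.70 ± 0.112 over both genotypes (adjusted p = 0.00034), with 0.92 in wild type and 0.48 in gene-trap mice, and its genotype effect in sham was 0.28 (adjusted p = 0.252). Its effect in wild type was 0.998 with replicate 6 as the only wild-type sham library. Col4a1 encodes the alpha1 chain of the basement membrane collagen IV. It was at 163, 192 and 203 CPM in wild-type sham libraries, 136, 198 and 267 CPM in gene-trap sham, 196, 244 and 261 CPM in wild-type castrated and 238, 276 and 329 CPM in gene-trap castrated libraries. Both castrated groups were high, and overlapped the sham groups through the lowest castrated and the highest gene-trap sham libraries. Col4a1 rose by 0.41 ± 0.0842 over both genotypes (adjusted p = 0.002), by 0.35 in wild type and 0.48 in gene-trap mice, where the adjusted p was 0.052 with edgeR and 0.0152 with DESeq2. Its head-to-head partner Col4a2 had a castration effect of 0.18 ± 0.0999 over both genotypes (adjusted p = 0.195). Col15a1, a multiplexin at the edge of basement membranes, rose by 0.34 ± 0.103 and Col8a1, a short-chain network collagen, by 0.35 ± 0.102 (adjusted p = 0.016 and 0.014).

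Collagen VI forms beaded microfibrils around cells. Its alpha2 gene Col6a2 was at 56.9, 61.5 and 92.3 CPM in wild-type sham libraries, 30.4, 36.3 and 50.7 CPM in gene-trap sham, 31.9, 36.5 and 59.4 CPM in wild-type castrated and 32.5, 46.7 and 72.7 CPM in gene-trap castrated libraries. Every gene-trap sham library lay below every wild-type sham library; Col6a2 and Fbln1 were the 2 of 42 genes for which these groups did not overlap, against 7.62% of all genes. Col6a2 was lower by 0.82 in gene-trap sham (-0.82 ± 0.150, adjusted p = 0.00131) and fell by 0.70 after castration in wild type (-0.70 ± 0.176, adjusted p = 0.00293), with an effect of 0.31 ± 0.178 in gene-trap mice (adjusted p = 0.366). With replicate 6 as the only wild-type sham library the differences were -0.58 and -0.45. Col6a1, its neighbour 85161 bases away on chromosome 10, did not pass in sham (-0.28, adjusted p = 0.082) or after castration in wild type (-0.14, adjusted p = 0.372), and Col6a3 passed in no comparison.

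**Figure D2:**
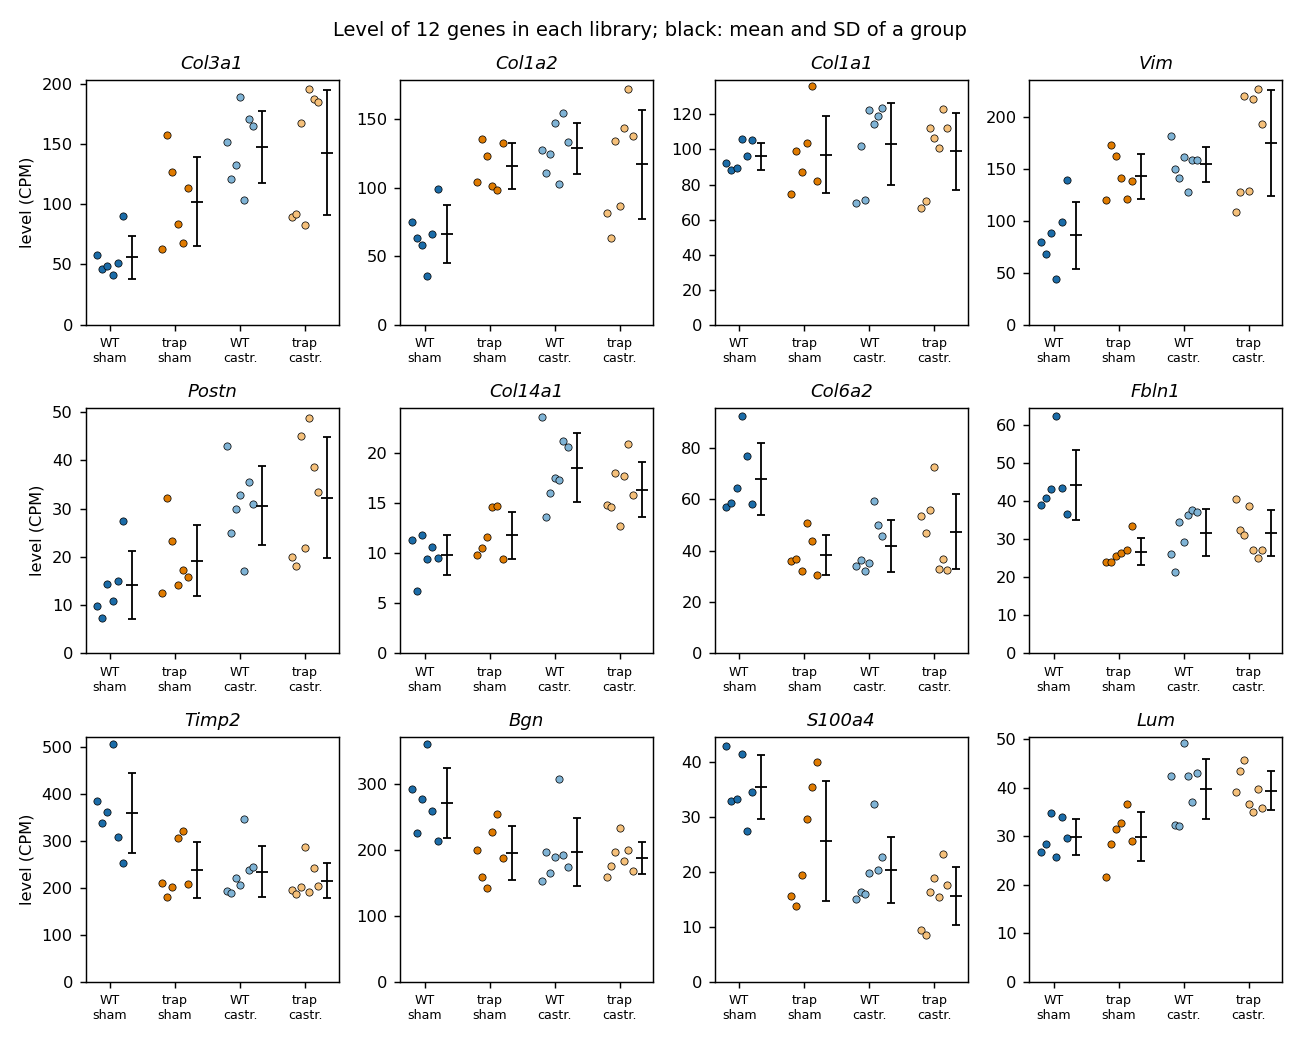
Level (CPM) of 12 genes in each of 26 libraries, with the mean and SD of each group in black; WT is wild type, trap is gene trap and castr. is castrated. Col3a1, Col1a2 and Vim are low in wild-type sham, and Postn and Col14a1 have lower medians in both sham groups than in the castrated groups. Col1a1 has medians of 93.1 to 114 CPM in all groups, and Col6a2, Fbln1, Timp2 and Bgn are high in wild-type sham.

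Few matrix glycoproteins moved. Postn encodes periostin, a matricellular protein of activated fibroblasts. It was at 7.38, 12.6 and 27.5 CPM in wild-type sham libraries, 12.6, 16.5 and 32.2 CPM in gene-trap sham, 17.1, 30.995 and 43.1 CPM in wild-type castrated and 18.1, 33.5 and 48.7 CPM in gene-trap castrated libraries. The castrated medians were about the level of the highest sham libraries in both genotypes, and the ranges overlapped. Postn rose 1.91-fold over both genotypes (0.93 ± 0.202, adjusted p = 0.00283), by 1.11 in wild type (adjusted p = 0.00411), and its effect in gene-trap mice was 0.75 with a 95% interval from 0.20 to 1.31 (adjusted p = 0.165). With replicate 6, the highest wild-type sham library, left as the only one, its effect in wild type was 0.19. The list of myofibroblast markers held Acta2, Tagln, Cnn1, Cthrc1 and Fap, of which 4 were tested. After castration in wild type 1 of the 4 rose and 0 fell, with a median log2 fold change of -0.27 (19.1% and 21.3% of all genes). Over both genotypes 1 rose and 1 fell, with a median of -0.46 (12.1% and 12.7% of all genes). Fbln1 encodes fibulin-1, which binds fibronectin and basement membrane proteins. It was at 36.5, 42.0 and 62.3 CPM in wild-type sham libraries, 23.9, 26.0 and 33.3 CPM in gene-trap sham, 21.3, 34.5 and 37.6 CPM in wild-type castrated and 24.9, 30.9 and 40.6 CPM in gene-trap castrated libraries. Wild-type sham was the high group and did not overlap gene-trap sham. Fbln1 was lower in gene-trap sham (-0.71 ± 0.139, adjusted p = 0.0019) and fell after castration in wild type (-0.48 ± 0.143, adjusted p = 0.00962), while the effect over both genotypes was -0.12 (adjusted p = 0.42). Without wild-type sham replicate 4, its highest library, the castration effect was -0.35 (adjusted p = 0.052). With replicate 6 as the only wild-type sham library the differences were -0.42 and -0.17.

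No comparison passed for Fn1, Fbln2, Fbn1, Eln, Mfap5, Thbs1, Dpt or Sparc, which encode fibronectin, fibulin-2, the microfibril protein fibrillin-1, elastin, a microfibril-associated glycoprotein, thrombospondin-1, dermatopontin and osteonectin. Their castration effects over both genotypes ran from -0.14 for Eln to 0.29 for Fn1 (adjusted p = 0.526 and 0.0641). Spp1, which encodes osteopontin, was too low to test, at 0 to 3.44 CPM.

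Of the small leucine-rich proteoglycans, which coat collagen fibrils and limit their thickness, Lum moved with castration and Bgn with wild-type sham. Lumican (Lum) was at 25.7, 29.1 and 34.9 CPM in wild-type sham libraries, 21.5, 30.2 and 36.7 CPM in gene-trap sham, 32.1, 42.4 and 49.2 CPM in wild-type castrated and 34.97, 39.2 and 45.8 CPM in gene-trap castrated libraries. Both castrated groups were higher, with little overlap. Lum rose by 0.40 ± 0.0864 over both genotypes (adjusted p = 0.00236), with 0.41 in wild type (adjusted p = 0.00856) and 0.39 in gene-trap mice (adjusted p = 0.0925), and the genotypes differed by 0.02 in sham and -0.01 in castrated mice. Lum has the second lowest GC content of the 44 transcript ends, 32.8%, and with the GC trend of each library removed the effect was 0.0028 in wild type, 0.40 in gene-trap mice and 0.20 over both genotypes (adjusted p = 0.991, 0.114 and 0.13). Biglycan (Bgn) was at 213, 268 and 361 CPM in wild-type sham libraries, 143, 194 and 254 CPM in gene-trap sham, 154, 189.6 and 307 CPM in wild-type castrated and 159, 183 and 233 CPM in gene-trap castrated libraries. Wild-type sham was high and overlapped each other group. Bgn was lower by 0.46 both in gene-trap sham (-0.46 ± 0.149, adjusted p = 0.0284) and after castration in wild type (-0.46 ± 0.148, adjusted p = 0.0142), and without wild-type sham replicate 4 the differences were -0.36 and -0.37 (adjusted p = 0.0697 and 0.061). The sham call was lost without any of 6 single libraries, and with replicate 6 as the only wild-type sham library the differences were -0.10 and -0.08. With the GC trend removed they were -0.34 and -0.28 (adjusted p = 0.0702 and 0.0863). Decorin (Dcn), among the most counted genes of the set, had medians of 716, 646, 645 and 673 CPM, and its castration effect over both genotypes was -0.03 with a 95% interval from -0.15 to 0.10.

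The 3 lysyl oxidases did not all move alike. After castration in wild type Loxl2 rose and Loxl1 fell. The effect for Lox was negative too, at -0.50, but did not pass (edgeR adjusted p = 0.198). Loxl2, which oxidises lysines of collagen IV, was at 3.17, 6.11 and 7.52 CPM in wild-type sham libraries, 6.75, 7.60 and 12.7 CPM in gene-trap sham, 7.83, 12.1 and 14.3 CPM in wild-type castrated and 7.05, 10.9 and 13.2 CPM in gene-trap castrated libraries. The wild-type castrated libraries all lay above the wild-type sham libraries. Loxl2 rose by 0.93 ± 0.195 in wild type (adjusted p = 0.000833) and by 0.61 ± 0.137 over both genotypes (adjusted p = 0.00284); 18.5% of the sequence words at its transcript ends recur in other genes. Loxl1, an elastin crosslinker, was at 27.0, 32.4 and 42.0 CPM in wild-type sham libraries, 21.3, 22.4 and 33.2 CPM in gene-trap sham, 19.0, 27.1 and 28.6 CPM in wild-type castrated and 18.1, 22.2 and 32.4 CPM in gene-trap castrated libraries. Wild-type sham was the high group and overlapped the others. Loxl1 was lower by 0.44 in gene-trap sham and after castration in wild type (-0.44 ± 0.142, adjusted p = 0.0293, and -0.44 ± 0.151, adjusted p = 0.0197), and its call was lost without any of 7 single libraries in sham and 2 after castration. Lox, the founding crosslinking enzyme of the family, was at 0.503 to 4.89 CPM in all libraries, with a castration effect of -0.53 ± 0.226 over both genotypes (adjusted p = 0.0834).

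Metalloproteinase genes and their inhibitors changed unevenly. Mmp2, a gelatinase that fibroblasts secrete, was at 47.3, 52.0 and 62.6 CPM in wild-type sham libraries, 34.4, 46.4 and 54.9 CPM in gene-trap sham, 46.0, 52.7 and 59.0 CPM in wild-type castrated and 51.7, 63.7 and 100.7 CPM in gene-trap castrated libraries. Gene-trap castrated was the high group, led by replicates 3 and 4. The castration effect was 0.58 ± 0.141 in gene-trap mice (adjusted p = 0.052 with edgeR, 0.0139 with DESeq2) and -0.01 ± 0.140 in wild type. Mmp14, which activates the Mmp2 proenzyme, passed nowhere, with medians of 18.7, 21.9, 20.9 and 24.7 CPM. Timp2, an inhibitor that also takes part in that activation, was at 254, 350.3 and 507 CPM in wild-type sham libraries, 181, 209.8 and 321 CPM in gene-trap sham, 188, 221 and 348 CPM in wild-type castrated and 188, 202 and 288 CPM in gene-trap castrated libraries. Wild-type sham was high, and its lowest library, replicate 6, lay within the range of all other groups. Timp2 was lower in gene-trap sham (-0.58 ± 0.168, adjusted p = 0.0174), fell after castration in wild type (-0.62 ± 0.158, adjusted p = 0.00331) and fell over both genotypes (-0.38 ± 0.112, adjusted p = 0.0146). With replicate 6 as the only wild-type sham library these differences were -0.07, -0.09 and -0.10. Timp1, the inhibitor induced in fibrotic tissue, was low, at 1.399, 2.47 and 4.04 CPM in wild-type sham libraries, 2.08, 3.52 and 7.72 CPM in gene-trap sham, 1.06, 1.77 and 3.11 CPM in wild-type castrated and 0.968, 1.42 and 2.60 CPM in gene-trap castrated libraries. Gene-trap sham was highest and gene-trap castrated lowest, with overlap. Timp1 fell over both genotypes (-0.81 ± 0.212, adjusted p = 0.00763), with -1.21 in gene-trap mice (adjusted p = 0.052) and -0.40 in wild type (adjusted p = 0.296). Timp3, the matrix-bound inhibitor, passed nowhere.

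The promoter window of Timp2, a gene that fell, is shown for comparison with those of the collagens that rose, with capitals as above.
Timp2, chr11:118355362-118355661, minus strand: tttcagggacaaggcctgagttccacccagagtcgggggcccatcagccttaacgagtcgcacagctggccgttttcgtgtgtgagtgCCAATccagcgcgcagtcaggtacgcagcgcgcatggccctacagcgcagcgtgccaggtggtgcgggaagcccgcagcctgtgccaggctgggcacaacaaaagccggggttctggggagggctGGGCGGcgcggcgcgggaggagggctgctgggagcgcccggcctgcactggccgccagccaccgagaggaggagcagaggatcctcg
This window is 68.7% GC and held a CCAAT box and a GC box, with no match to the Smad-binding element or the androgen receptor half-site.

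The TGF-beta ligand genes moved little. Tgfb2 rose by 0.34 ± 0.130 after castration in wild type (adjusted p = 0.0341), from a median of 20.1 to 24.6 CPM with overlapping ranges, and its call was lost without any of 6 single libraries. Its effect in gene-trap mice was -0.13. Tgfb1, at 0.843 to 4.18 CPM, and Tgfb3, at 3.65 to 9.40 CPM, passed in no comparison. Further along the pathway, 23 genes of TGF-beta receptors, Smads and regulators were listed with earlier results of these data known. After castration in wild type 7 of 23 rose and 2 fell, a median log2 fold change of 0.18; 40.3% of all genes passed in that comparison, so that the list's share was near it. The largest rises were those of Ctgf (1.79, adjusted p = 0.00861), a matricellular TGF-beta target, and Tgfbr2 (1.47, adjusted p = 0.000951), the ligand-binding receptor. The type I receptor gene Acvrl1 fell by 0.70 and the signal transducer Smad3 by 0.36. Over both genotypes 5 rose and 1 fell (24.7% of all genes passed). In gene-trap mice 0 of 23 passed after castration, against 0.407% of all genes. Between genotypes in sham 1 was higher and 4 lower (26.2% of all genes passed).

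Genes of the fibroblast itself included a high intermediate filament gene and a low S100 gene. Vim encodes vimentin, the intermediate filament of mesenchymal cells and of the endothelium. It was at 43.7, 84.0 and 139.6 CPM in wild-type sham libraries, 121, 140.5 and 174 CPM in gene-trap sham, 128, 159 and 182 CPM in wild-type castrated and 108, 194 and 227 CPM in gene-trap castrated libraries. Wild-type sham was low except for replicate 6. Vim was higher by 0.75 ± 0.202 in gene-trap sham (adjusted p = 0.0133) and rose by 0.84 ± 0.191 after castration in wild type (adjusted p = 0.0015) and by 0.56 ± 0.134 over both genotypes (adjusted p = 0.00411). With replicate 6 as the only wild-type sham library these were 0.07, 0.18 and 0.24. Ddr2, a collagen receptor kinase of fibroblasts, was at 22.2, 26.4 and 30.4 CPM in wild-type sham libraries, 30.1, 36.2 and 43.7 CPM in gene-trap sham, 24.0, 27.7 and 32.6 CPM in wild-type castrated and 27.1, 28.8 and 38.1 CPM in gene-trap castrated libraries. Only the sham groups stood apart, and nearly without overlap. Ddr2 was higher in gene-trap sham (0.46 ± 0.121, adjusted p = 0.0098) and its difference was 0.46 also with replicate 6 as the only wild-type sham library. A gene on the opposite strand overlaps Ddr2, and whether counting used strand is not stated.

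S100a4, a calcium-binding protein also called fibroblast-specific protein, was at 27.5, 33.96 and 42.9 CPM in wild-type sham libraries, 13.7, 24.6 and 40.1 CPM in gene-trap sham, 15.1, 19.7 and 32.5 CPM in wild-type castrated and 8.43, 16.3 and 23.3 CPM in gene-trap castrated libraries. Castrated libraries were lower in both genotypes, with overlap. S100a4 fell by 0.79 in wild type (-0.79 ± 0.232, adjusted p = 0.00841) and by 0.75 over both genotypes (-0.75 ± 0.165, adjusted p = 0.00276), with -0.71 in gene-trap mice (adjusted p = 0.11). Its value is uncertain, since 52.5% of the sequence words at its transcript ends recur in other genes and a predicted gene overlaps it on the same strand. Gsn, the actin-severing protein gelsolin, fell by 0.30 in wild type and by 0.23 over both genotypes (-0.23 ± 0.0763, adjusted p = 0.0257). Each of these calls was lost without any of 4 single libraries, and with the GC trend removed the effects were 0.00192 and -0.09 (adjusted p = 0.992 and 0.417). Tcf21, a transcription factor of the cardiac fibroblast lineage, was at 0.144 to 2.23 CPM; it rose by 1.03 ± 0.411 in wild type (adjusted p = 0.0456), its call was lost without any of 10 single libraries, and it was not tested in sham. Pdgfra, the PDGF receptor that marks cardiac fibroblasts, passed nowhere, with 0.43 after castration in wild type (adjusted p = 0.0535).

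**Figure D3:**
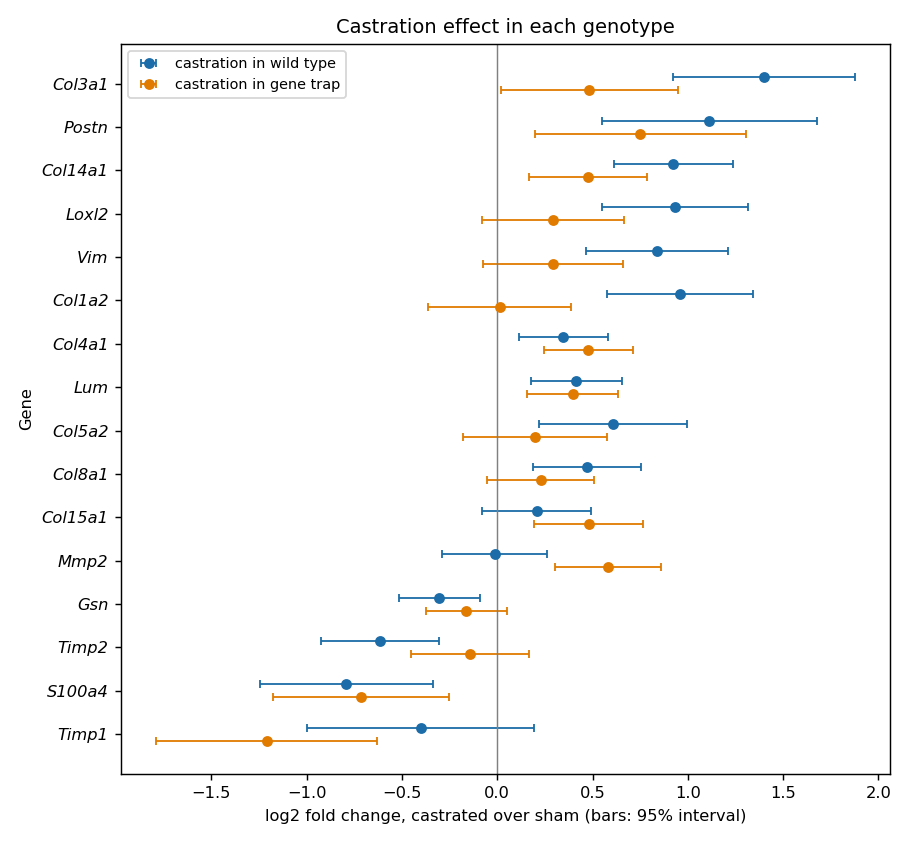
Log2 fold change of castrated over sham with its 95% interval (edgeR) in wild-type and gene-trap mice, for the 16 genes that passed over both genotypes. The points of a gene lie on the same side of 0 for every gene but Mmp2, at -0.01 in wild type and 0.58 in gene-trap mice. Choosing genes by the mean of both effects favours such a match of signs.

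Castration effects differed between the genotypes in 4 of 43 genes by the interaction term, against 20.1% of all genes. The effect of castration in gene-trap mice minus that in wild type was 1.01 ± 0.251 for Col6a2 (adjusted p = 0.0091), 0.72 ± 0.204 for Fbln1 (0.0154) and 0.59 ± 0.198 for Mmp2 (0.0338), and -0.95 ± 0.272 for Col1a2 (0.017). Wild-type sham had the highest median for Col6a2 and Fbln1 and the lowest for Col1a2, and gene-trap castrated had the highest for Mmp2. The ranges of these groups overlapped those of other groups. The estimate for Col3a1, -0.92 ± 0.335, had an adjusted p of 0.052. None of the 4 passed without gene-trap castrated replicates 1 to 4, where fewer libraries stood for that group. The values were then 0.54, 0.46, 0.33 and -0.59 in the order given. Without wild-type sham replicates 1 to 5, 1 library stood for wild-type sham, and whether the 4 passed there was not read. For Lum and S100a4 the differences were -0.02 and 0.08, with adjusted p = 0.947 and 0.887, and for Lum the difference was 0.39 with the GC trend of each library removed (adjusted p = 0.169). With that trend removed Fbln1 and Mmp2 no longer passed, at 0.49 and 0.30 (adjusted p = 0.0771 and 0.212).

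Partners that build the same protein or lie side by side were set against each other within each library, as log2 ratios of their CPM. The pairs were chosen after their values were seen and are described without a test; since tags are captured with unequal yield from different transcripts, only shifts of a ratio between groups are read. Col1a2 over Col1a1 was at -1.58, -0.50 and -0.09 in wild-type sham, -0.47, 0.47 and 0.69 in gene-trap sham, -0.16, 0.27 and 0.88 in wild-type castrated and -0.30, 0.29 and 0.51 in gene-trap castrated libraries. The wild-type sham median was the lowest, and its range overlapped those of the other groups. Col5a2 over Col5a1 gave medians of -0.96, -0.19, -0.21 and -0.03, and Timp3 over Timp2 -0.84, -0.11, 0.19 and 0.24. Col4a2 over Col4a1 was tight in wild-type sham, at -0.72, -0.66 and -0.55, and had medians of -0.99, -1.11 and -1.13 in the other groups. Col6a2 over Col6a1 had medians of 0.83, 0.21, 0.12 and 0.17. Col3a1 over Col5a2 had medians of 1.705, 2.03, 2.67 and 2.30. In these 6 pairs wild-type sham held the lowest or highest median, while its range overlapped that of at least 1 other group in each. Col6a3 over Col6a1 did otherwise, with medians of 0.05, 0.47, 0.60 and -0.08. The ratio of Lum to its neighbour Dcn, 46984 bases apart on chromosome 10, followed surgery: it was at -4.81, -4.54 and -4.39 in wild-type sham, -4.65, -4.44 and -4.24 in gene-trap sham, -4.29, -3.96 and -3.82 in wild-type castrated and -4.20, -4.09 and -3.88 in gene-trap castrated libraries. In each genotype the sham and castrated ranges of this ratio did not overlap. The GC content of transcript ends was 42.7% for Col1a2 and 49.7% for Col1a1, and 41.1% for Col5a2 and 42.9% for Col5a1. It was 58.2% for Col4a2 and 50.9% for Col4a1, and 48.1% for Col6a2 and 52.1% for Col6a1. Timp3 was at 47.5% and Timp2 at 50.6%, Lum at 32.8% and Dcn at 39.2%, and Col3a1 at 42.1%. The part of GC content in the shifts of these ratios was not tested.

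**Figure D4:**
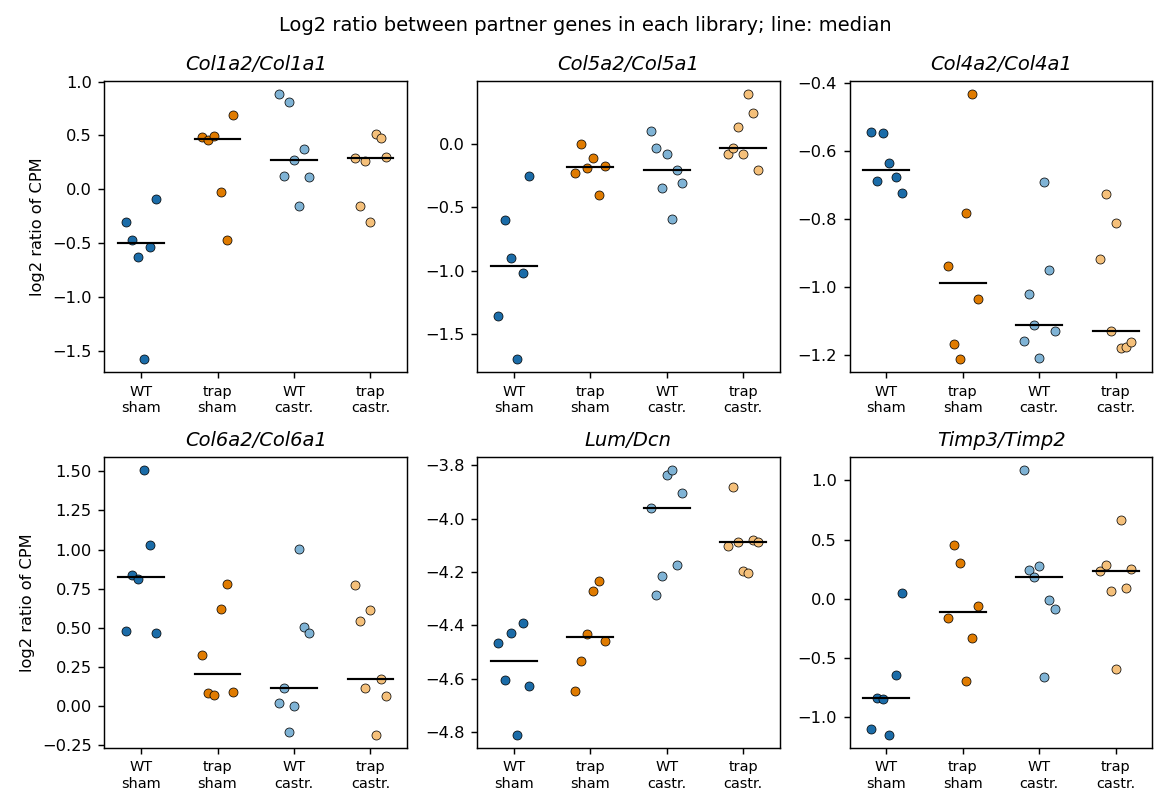
Log2 ratio of CPM of 6 pairs of genes in each library, with the group median as a line; WT is wild type, trap is gene trap and castr. is castrated, and the y axes differ between panels. Wild-type sham has the lowest or highest median in the collagen and Timp pairs, with overlapping libraries, whereas Lum over Dcn has medians of -4.54 and -4.44 in the sham groups and -3.96 and -4.09 in the castrated groups.

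The genes called in comparisons with wild-type sham differed in the GC content of their transcript ends, the last 400 bases of annotated transcripts. Genes higher in gene-trap sham had a mean of 43.8% and genes lower 50.6%. After castration in wild type the means were 41.7% for the 12 that rose and 50.9% for the 7 that fell. Across the 43 genes GC content and castration effect in wild type had r = -0.42. Each library's trend on GC content over all genes was then removed, which brings this correlation towards 0 by construction (r = -0.01). After that removal 16 genes passed in wild type, of which 10 were the same as before: Col3a1 (1.23), Loxl2 (0.90), Postn (0.85), Vim (0.82), Col1a2 (0.81), Col14a1 (0.78), Col4a1 (0.53), Timp2 (-0.45), Col6a2 (-0.65) and S100a4 (-0.68). The 9 calls lost included Lum, Col8a1, Fbln1, Bgn and Loxl1, and the 6 gained were Mmp14, Fbln2, Col15a1, Col4a2, Dcn (-0.40) and Lox (-0.91). Between genotypes in sham 12 passed, 7 of them as before. Over both genotypes 16 passed again, 12 of them as before. Col5a2, Col8a1, Lum and Gsn were lost and Col4a2, Fbln2, Sparc and Lox gained. The shares of all genes that passed with the trend removed are not given, so these counts describe the set alone.

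**Figure D5:**
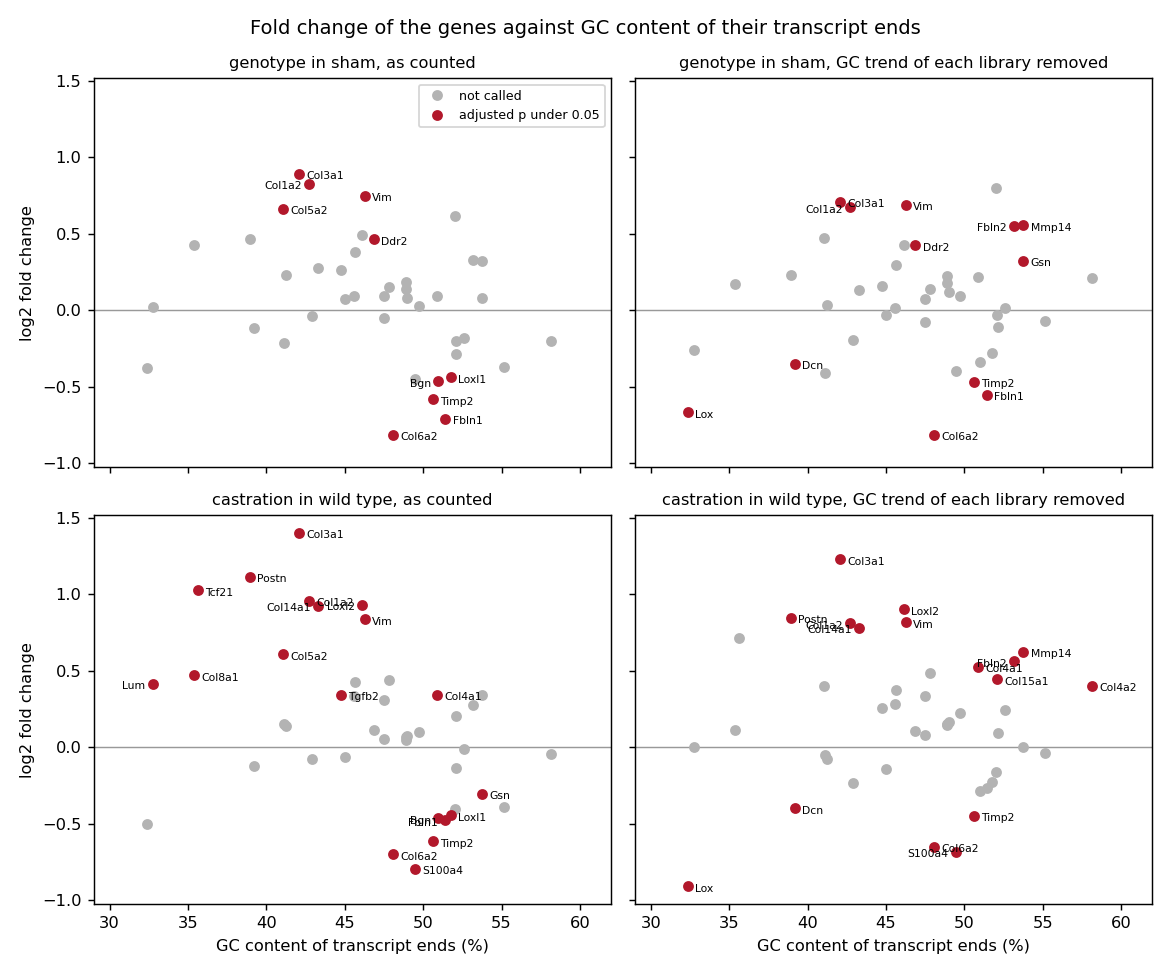
Log2 fold change (y axis) of the genes against the GC content of their transcript ends in percent (x axis), as counted on the left and with each library's GC trend removed on the right; red marks an adjusted p under 0.05. On the left, genes that rose lie at lower GC content (mean 41.7% after castration in wild type) than genes that fell (50.9%), and Col3a1, Col1a2 and Vim are called on both sides.

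The machinery around the matrix moved in mixed directions. Of 18 genes that fold, modify and export collagen, 3 rose and 7 fell after castration in wild type, where 19.1% of all genes rose and 21.3% fell. Serpinh1, the collagen chaperone, rose by 0.52, Sec23a, a coat protein of collagen export, by 0.68 and Plod2, the telopeptide lysyl hydroxylase, by 0.51 (adjusted p = 0.0482, 0.000604 and 0.0164), whereas the hydroxylases Plod1 and Plod3 and the collagen glycosyltransferase Colgalt1 fell by 0.64, 0.54 and 0.66. Over both genotypes 3 rose and 2 fell, against 12.1% and 12.7% of all genes. Of 10 basement membrane genes 3 rose and 2 fell in wild type; over both genotypes the nidogen genes Nid1 and Nid2, whose products link laminin to collagen IV, rose by 0.59 and 0.82 and the laminin chain gene Lamc1 by 0.34 (adjusted p = 0.00733, 0.00276 and 0.0166), and 0 fell. Of 14 matrix receptor genes 4 rose and 3 fell in wild type, among them Cd44, the hyaluronan receptor, at 0.74 and the integrin gene Itga7 at -0.56. Of 12 further proteases and inhibitors 2 rose and 2 fell, with Timp4, the inhibitor most abundant in heart, falling by 0.99 (adjusted p = 0.00126). None of the 5 lists had a gene that passed after castration in gene-trap mice or between genotypes in castrated mice. Of all genes 0.407% and 0.205% passed there, so that 0 calls is close to the share of all genes.

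Markers of other cells moved in the same comparisons, and the counts stand against 19.1% of all genes that rose and 21.3% that fell. After castration in wild type 7 of 8 cardiomyocyte markers fell, 2 of 8 endothelial markers rose and 4 fell, 2 of 8 mural markers rose and 1 fell, 1 of 7 tested macrophage and leukocyte markers fell, all 5 erythroid markers fell, and of 2 tested epicardial markers Wt1 rose by 1.19 (adjusted p = 0.00267) and Tbx18 did not pass. In gene-trap mice 0 of these markers passed after castration, against 0.407% of all genes. Summed levels ran from 1159 to 1666 CPM in wild-type sham and from 1074 to 2753 CPM elsewhere for the endothelial list, from 1392 to 1817 and from 1023 to 2086 CPM for the mural list, from 367 to 613 and from 236 to 611 CPM for the macrophage and leukocyte list, from 3338 to 7249 and from 1122 to 6575 CPM for the erythroid list, and from 4.74 to 17.2 and from 9.19 to 22.9 CPM for the epicardial list. Cd3e, the epicardial genes Krt19, Msln and Upk3b, and the adipocyte genes Lep, Retn, Cidec, Adipoq and Plin1 were at 0 in at least 1 library. The part of these cells in the results on matrix genes was not tested.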

How the data were processed

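Left-ventricle RNA from mice aged 40 days was made into libraries of transcript 3′ ends; the labels' protocols name the QuantSeq forward kit. Listed in the submitters' processing notes, with no step given, are STAR, FastQC, CASAVA 1.4, DESeq2 1.22.2, featureCounts 1.6.0, mm10 and GRCm38. The authors deposited 1 table for each surgery group with the raw count of every gene in every library, per the file headers, without normalization. Entries that name no gene stayed out of library sizes and tests; 0.277% to 0.358% of a column was ambiguous, 2.66% to 4.62% lay in no gene and 41.9% to 46.8% had no unique alignment.

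The tests were edgeR 4.0.16 quasi-likelihood tests (filterByExpr, TMM scaling, robust dispersion) in R 4.3.3, Benjamini-Hochberg adjusted over all genes, threshold 0.05. Genotype effects were fitted within each surgery group, castration effects and the interaction in a fit of all 26 libraries, with gene trap minus wild type and castrated minus sham as positive. Of the 44 genes, 42 or 43 passed the filter; Spp1 never did, and Tcf21 not in sham. The 16 genes given library by library were ranked by the number of comparisons in which they passed, then by p; Sparc, Lum and Timp1, described likewise, were chosen after their values were seen. The genes and lists were chosen with earlier results of these data known. Alternatives were DESeq2 1.42.0, its size factors, limma 3.58.1 voom with sample weights, no filter, other groups in the fit, the replicate number as a block, leaving out mitochondrially encoded genes or libraries, and removal of each library's lowess trend on GC content of the last 400 bases of GENCODE M21 transcripts, available for 99.1% of genes. Sequence words had 31 bases. The fits were tested on simulated data. They recovered 46% to 92% of changes of log2 1 and 5% to 58% of changes of log2 0.5. Recovery was lowest for the interaction and highest for castration over both genotypes.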

Additional observations from a re-analysis of the deposited data

Results flagged for a closer look

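Of 180 groups of values tested, 17 had a library far from the others of its group, by Dixon's limits of 0.625 for 6 libraries and 0.568 for 7; chance flags about 1 in 20. In wild-type sham these were Col3a1 in replicate 6 (90.2 CPM, next 57.8), Fbln1 in replicate 4 (62.3 CPM, next 43.4) and Dcn in replicate 1 (590 CPM, next 692). In gene-trap sham they were Thbs1, Loxl2 and Spp1 in replicate 2 (11.5, 12.7 and 3.44 CPM), Fbln1 and Timp1 in replicate 7 (33.3 and 7.72 CPM) and Loxl1 in replicate 5 (33.2 CPM). In wild-type castrated they were Col5a2, Bgn and Timp2 in replicate 5 (16, 307 and 348 CPM), Thbs1 in replicate 4 (14.1 CPM), Timp3 in replicate 1 (410 CPM) and the summed level of the 44 genes in replicate 3 (4057 CPM, next 4435). In gene-trap castrated they were Dcn in replicate 3 (778 CPM) and Ddr2 in replicate 6 (38.1 CPM).

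The castration effect differed between the genotypes by the interaction term in 4 of 43 genes, a smaller share than the 20.1% of all genes. Gene trap minus wild type was 1.01 for Col6a2 (edgeR adjusted p = 0.0091), 0.72 for Fbln1 (0.0154), 0.59 for Mmp2 (0.0338) and -0.95 for Col1a2 (0.017). Mmp2 lost its call without any of 10 single libraries, with adjusted p up to 0.0695, and the other 3 kept theirs without any single library.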

How the results depend on the processing

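With wild-type sham replicates 1 to 5 left out, 1 library stood for that group and was assumed to vary like the others. Counts of genes passing are not given for that fit, since 1 library shows no spread. Signs turned there for Col5a2 (-0.101 between genotypes and -0.132 after castration), Col8a1 (-0.0171) and Tcf21 (-0.429) after castration in wild type, and Gsn after castration in wild type was 0.00192 with the GC trend removed. Without gene-trap castrated replicates 1 to 4 the interaction gave 0. Castration in gene trap gave 4 genes with DESeq2, 2 without a filter, 3 with the GC trend removed and 1 without mitochondrially encoded genes, against 0, and genotype in castrated gave 1 with limma voom. The interaction gave 8 with DESeq2 and 9 with limma voom, against 4. Leaving out single libraries gave 7 to 13 genes for genotype in sham, 13 to 22 for castration in wild type, 14 to 20 over both genotypes, 0 for genotype in castrated, 0 to 4 for castration in gene trap (4 without gene-trap castrated replicate 5) and 3 to 10 for the interaction (10 without wild-type sham replicate 6). Counts in this section are of genes of the set alone, without the share of all genes in the same fit. The cause was not tested.

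Replicate numbers did not pair the libraries: same-numbered samples correlated at -0.400 to 0.323, and 1 of 10, 0 of 14, 2 of 12 and 2 of 12 samples correlated best with their own number. With the replicate number as a block, 13 genes passed for genotype in sham, 1 for castration in gene trap and 9 for the interaction.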
